A study of Mus musculus with 9 samples.

Results

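Transcripts of 10 genes of the Wnt pathway were examined in dendritic cells of the mouse thymus: the receptors Fzd1, Fzd5 and Fzd7, the co-receptors Lrp5 and Lrp6, the destruction complex genes Apc and Axin2, β-catenin (Ctnnb1), and the transcription factors Tcf7l2 and Lef1. They are 10 of the 55302 gene rows of the deposited count table, matched by symbol. The set was picked because Fzd1 was nearly confined to the libraries named XCR1, so the levels of Fzd1 are given as a description without a test. Tests were run on the other 9 genes, none of which the rule selected by its own level.

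RNA-seq was carried out on 9 libraries from C57BL/6 mice 8 weeks of age, with no genetic change or treatment named in the labels. Each of 3 sorted populations, named XCR1, SIRPa and CD301b, has 3 libraries. XCR1 is a chemokine receptor found on type 1 conventional dendritic cells (cDC1), SIRPa is a receptor of type 2 cells (cDC2), and CD301b is a lectin, encoded by Mgl2, that marks a subset of type 2 cells. The gates used for the sort are not described in the labels. The labels call the cells thymic dendritic cells but the source thymocytes, and the cell type is followed here. The study's text speaks of 3 mice, while the CD301b libraries are numbered 1, 3 and 4. Neither pooling of animals nor a link between libraries of different populations is described, so the tests measure the spread between these libraries, which may be in part technical.

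The libraries held 20246092 to 25438864 counts. The sort markers followed the labels: Xcr1 stood at 766 ± 96.8 CPM (counts scaled to a common library size) in XCR1, 9.61 ± 5.19 in SIRPa and 0.619 ± 0.403 in CD301b (mean ± SD, n = 3, as throughout). Sirpa was 12.5 ± 3.06, 774 ± 58.6 and 646 ± 53.7 CPM in the same order, and Mgl2 1.82 ± 0.508, 23.2 ± 5.32 and 624 ± 58.2 CPM. All 15 genes of a cDC1 list were higher in XCR1 than in either other population, while 14 (SIRPa) and 15 (CD301b) of 15 cDC2 genes were higher than in XCR1. Markers of other cells were present. The summed level of 18 macrophage genes was 165.7 to 257.6 CPM in XCR1, 6353 to 7336 in SIRPa and 3453 to 4008 in CD301b. For 23 thymocyte and T cell genes, counted without Tcf7 and Lef1, the sum was 233.7 to 951.9, 382.5 to 770.1 and 411.3 to 868.7 CPM. The part that such cells play in the differences below was not tested, except where values for Lef1 and Tcf7 are set beside the thymocyte genes.

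Wnt proteins are secreted lipid-modified ligands. They bind a Frizzled receptor together with LRP5 or LRP6, and this stops the destruction complex of APC, Axin, GSK3 and casein kinase 1 from marking β-catenin for degradation. β-catenin then enters the nucleus and joins the TCF and LEF transcription factors at target genes, of which Axin2 is among the most widely used. In the thymus, TCF1 (Tcf7) and LEF1 are best known for their role in developing T cells, and β-catenin signalling in dendritic cells is known mainly from work on tolerance in peripheral tissues.

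β-catenin and Apc transcripts stayed within narrow ranges, while other members differed between populations. By mean level, Fzd7 and Lrp5 were highest in XCR1, Lrp6 was lowest there, Axin2 was highest in SIRPa, and Tcf7l2 was lowest in CD301b. Lrp5 was not called between XCR1 and SIRPa, nor Axin2 between SIRPa and CD301b. With edgeR's quasi-likelihood test, adjusted by Benjamini-Hochberg over 15417 genes, 4 of the 9 members differed between CD301b and XCR1, where 22.6% of all genes tested did. Of these, 1 was higher in CD301b and 3 in XCR1, beside 13.5% and 9.12% of all genes. Between SIRPa and XCR1 it was also 4 of 9, against 24.7% of all genes, with 2 higher in SIRPa and 2 in XCR1, beside 13.9% and 10.7%. Between CD301b and SIRPa it was 1 of 9, against 4.28%. That gene was higher in SIRPa, as were 2.08% of all genes, and 2.2% were higher in CD301b. The 3 comparisons share libraries and are not independent of each other. With 9 genes, these counts are a description and were not tested against the background. In bulk RNA, fewer expressing cells and less RNA per cell cannot be told apart.

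**Figure D1:**
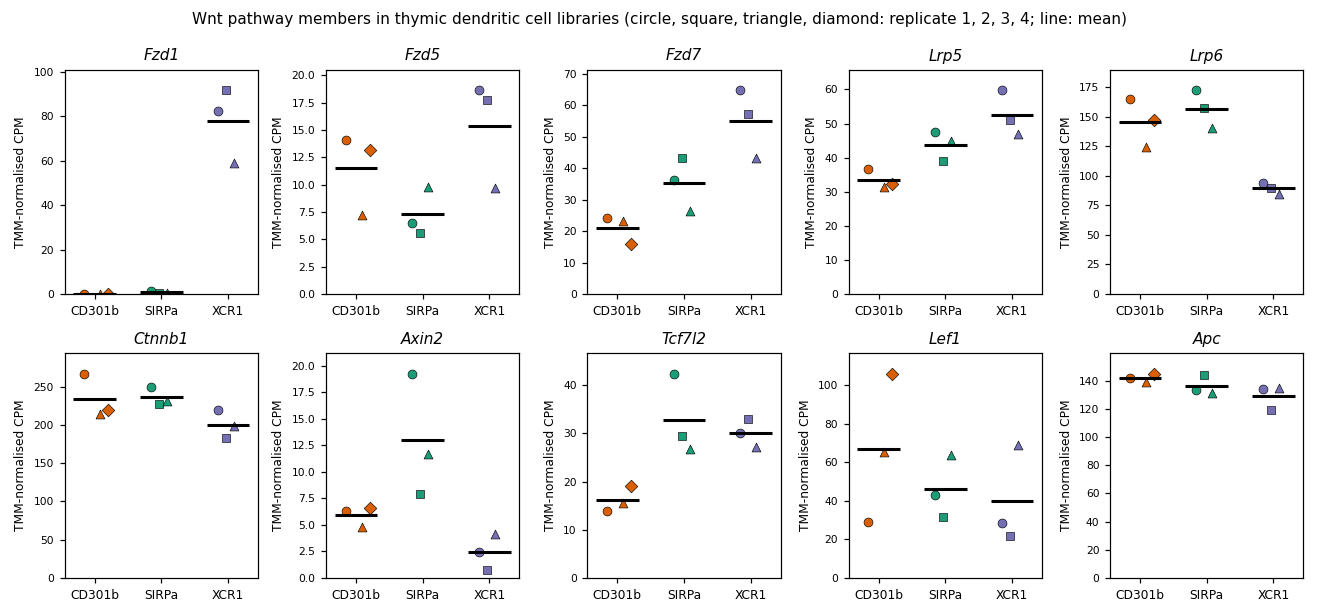
TMM-normalised CPM (vertical axes, each starting at 0) of the 10 members in every library, by population; symbols give the replicate number and lines the mean of 3 libraries. Fzd1 is at 58.98 to 91.79 CPM in XCR1 and at most 1.23 CPM elsewhere, Lrp6 is lower in all XCR1 libraries than in any other, and Lef1 spreads widely within each population.

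Fzd1, a single-exon Frizzled gene on the minus strand at chr5:4753839-4758035 (GRCm38, GENCODE M21), had 1649, 1932 and 1223 reads in XCR1 replicates 1 to 3. In SIRPa replicates 1 to 3 it had 26, 10 and 8 reads, and in the CD301b libraries none. These counts correspond to 82.26, 91.79 and 58.98 CPM in XCR1 and to 1.23, 0.439 and 0.377 CPM in SIRPa. No library outside XCR1 came near the lowest XCR1 library. The SIRPa mean was 0.878% of the XCR1 mean. Against the floor of 3 counts over the 3 CD301b libraries, the XCR1 mean was at least 1797-fold higher and the SIRPa mean at least 15.8-fold higher, or at least 9.44-fold without SIRPa replicate 1. These floors cover counting error only, since no molecular identifiers are stated.

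The few Fzd1 reads in SIRPa stood beside a low level of cDC1 genes in the same libraries. In SIRPa replicates 1, 2 and 3, Fzd1 was at 1.58%, 0.566% and 0.485% of its XCR1 mean. Xcr1 was at 0.858%, 2.04% and 0.867% of its own XCR1 mean, and Gcsam, another cDC1 marker, at 0.226%, 4.10% and 1.09%. Other cDC1 genes kept more. Clec9a was at 5.31%, 6.42% and 7.62% in SIRPa and at 4.40% to 5.33% in CD301b, where Fzd1 had no read. The sum of the 15 cDC1 genes was 1978 to 2306 CPM in SIRPa and 2092 to 2516 in CD301b, against 11530 to 13600 CPM in XCR1. SIRPa replicate 1, the SIRPa library with most Fzd1, had the least Gcsam. Its Xcr1 level (6.578 CPM) and its cDC1 sum (1985 CPM) were nearly level with those of SIRPa replicate 3 (6.645 and 1978 CPM). Over all 6 libraries outside XCR1, Fzd1 averaged 0.439% of the XCR1 mean, and 0.21% without SIRPa replicate 1. Whether these reads came from cDC1 in the SIRPa gate was not tested.

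Fzd1, Fzd2 and Fzd7 form the closest group among Frizzled genes, so reads could in principle be shared between copies. The stretch below shows how alike the coding sequences of Fzd1 and Fzd7 are where their longest identical run lies, taken from GENCODE M21 transcripts. It covers chr5:4756927-4757046 on the minus strand for Fzd1 and chr1:59483308-59483427 on the plus strand for Fzd7 (GRCm38). Capitals mark the bases that differ, 21 of 120, so the stretch is 82.5% identical.
Fzd1: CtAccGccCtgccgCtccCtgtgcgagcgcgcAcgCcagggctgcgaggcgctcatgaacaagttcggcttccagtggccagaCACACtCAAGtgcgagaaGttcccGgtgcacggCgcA
Fzd7: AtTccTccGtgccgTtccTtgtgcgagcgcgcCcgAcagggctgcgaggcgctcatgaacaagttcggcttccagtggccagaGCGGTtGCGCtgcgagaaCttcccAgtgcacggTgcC
The longest identical coding run was 47 bases, both with Fzd7 and with Fzd2. Of the 4162 distinct 36-base words of the Fzd1 gene model, 32 (0.769%) occurred in another Frizzled gene, and no 50-base word did. The labels name no read length. The CD301b libraries had no Fzd1 read while holding 608, 551 and 325 Fzd7 reads. Sharing of reads between Fzd1 and the other Frizzled genes, in either direction, was not tested.

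Fzd7, also a single-exon gene (chr1:59482424-59486955, plus strand), is a Frizzled receptor that is also known as a Wnt target in several tissues. It stood at 64.75, 57.29 and 43.16 CPM in XCR1 replicates 1 to 3, at 36.25, 43.18 and 26.34 CPM in SIRPa, and at 24.22, 23.1 and 15.9 CPM in CD301b replicates 1, 3 and 4. XCR1 and CD301b did not overlap, while the lowest XCR1 library lay just under the highest SIRPa library. CD301b was lower than XCR1 by a log2 fold change of -1.38 ± 0.22 (SE, edgeR adjusted p = 5.56e-05). SIRPa was lower than XCR1 by -0.64 ± 0.21 (edgeR adjusted p = 0.0315), a call lost without any 1 of SIRPa replicate 1 (0.0657), SIRPa replicate 3 (0.163), XCR1 replicate 1 (0.157) or XCR1 replicate 2 (0.0842). CD301b and SIRPa did not overlap either, with a log2 difference of -0.74 ± 0.22 that missed the threshold (edgeR adjusted p = 0.0572) and passed it with DESeq2 (adjusted p = 0.0334).

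Fzd5, the third Frizzled of the set, is a receptor used by WNT5A and by several other Wnts. It was at 18.66, 17.77 and 9.742 CPM in XCR1, at 6.531, 5.623 and 9.756 CPM in SIRPa, and at 14.06, 7.253 and 13.16 CPM in CD301b. Each population overlapped each other one, XCR1 and SIRPa at their 2 nearest libraries alone. SIRPa was lower than XCR1 by -1.08 ± 0.35 on the log2 scale (edgeR adjusted p = 0.0279). That call was lost without SIRPa replicate 1 (0.0912), SIRPa replicate 2 (0.111), XCR1 replicate 1 (0.119) or XCR1 replicate 2 (0.0963). CD301b differed from neither XCR1 (-0.42 ± 0.34, edgeR adjusted p = 0.454) nor SIRPa (0.65 ± 0.35, adjusted p = 0.428) by the test. Of its 6915 exonic bases, 1233 lie opposite the gene model Gm38058, and no strand setting of the counting is named in the labels.

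The other 7 Frizzled genes were low. Fzd9 was at 0.996, 1.89 and 2.06 CPM in the CD301b libraries, at 0.189 CPM in SIRPa replicate 1, and without a read in the other SIRPa and all XCR1 libraries. CD301b was at least 33.9-fold higher than XCR1 against the floor (edgeR adjusted p = 0.0216), and the difference from SIRPa did not pass (adjusted p = 0.273). Fzd9 passed the filter on low counts only through the CD301b libraries, where it was high, so the test is not free of that selection. The call against XCR1 was lost without any 1 of CD301b replicates 3 and 4 and the 3 XCR1 libraries (edgeR adjusted p = 0.0514 to 0.0621). Fzd4 averaged 0.736 ± 0.501 CPM in XCR1, 1.24 ± 0.684 in SIRPa and 2.46 ± 2.43 in CD301b and passed in no comparison. Fzd2, Fzd3, Fzd6, Fzd8 and Fzd10 were removed by the filter on low counts. Fzd2 averaged 0.433 ± 0.111 CPM in SIRPa and had no read in either other population, while the highest mean of the remaining 4 was 0.420 ± 0.224 CPM, for Fzd10 in SIRPa. Fzd10 had 27 reads in SIRPa and 1 in CD301b, a ratio of 28.8 (exact 95% counting interval 4.74 to 1178).

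To compare receptors with each other, CPM were divided by exonic length. Fzd1 reached 18.5 ± 4.02 CPM per kb in XCR1, above Fzd7 at 12.2 ± 2.42 and Fzd5 at 2.23 ± 0.710 CPM per kb in the same libraries. Fzd1 made up 55.9 ± 2.60% of the summed Frizzled level per kb in XCR1, Fzd7 36.9 ± 2.64% and Fzd5 6.61 ± 0.931%. In SIRPa the largest share was that of Fzd7, at 81.2 ± 7.99%, and Fzd1 had 1.70 ± 1.12%. CD301b libraries had 61.8 ± 11.3% from Fzd7, 22.1 ± 6.63% from Fzd5 and 9.74 ± 3.81% from Fzd9. The sum over all 10 receptors was 33.1 ± 6.74 CPM per kb in XCR1, 9.49 ± 1.40 in SIRPa and 7.50 ± 0.486 in CD301b. The XCR1 sum contains Fzd1, by which the set was chosen, and is a description.

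**Figure D2:**
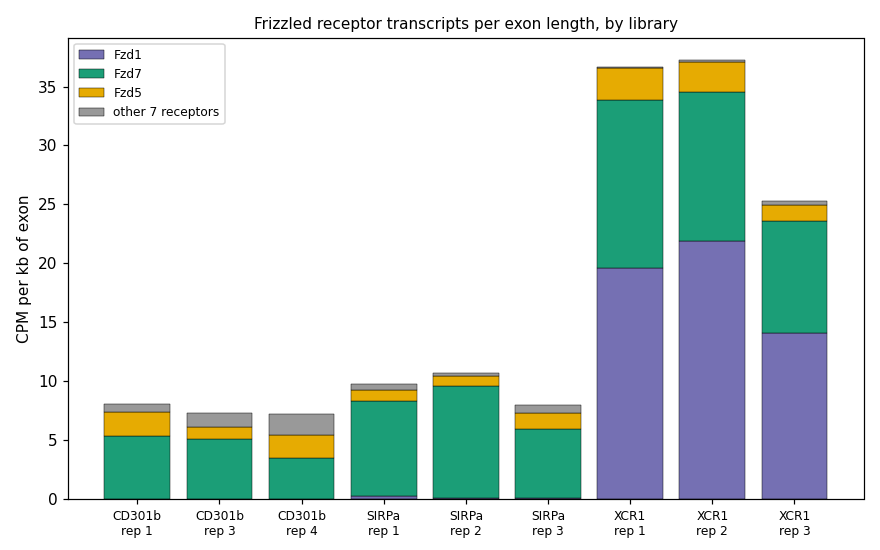
Stacked CPM per kb of exon (vertical axis) of Fzd1, Fzd7, Fzd5 and the other 7 Frizzled genes in each of the 9 libraries. Fzd7 is the largest part of every CD301b and SIRPa bar, and Fzd1 the largest part of every XCR1 bar.

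Fzd1 and Fzd7 were both at their highest in XCR1, and the 250 bases before their RefSeq starts (GRCm38.p6) are shown for that reason. They lie at chr5:4758217-4758466 on the minus strand and chr1:59481897-59482146 on the plus strand. Capitals mark the letters CTTTG, the core of the TCF/LEF motif, on either strand (CAAAG where it is on the other strand).
Fzd1 promoter: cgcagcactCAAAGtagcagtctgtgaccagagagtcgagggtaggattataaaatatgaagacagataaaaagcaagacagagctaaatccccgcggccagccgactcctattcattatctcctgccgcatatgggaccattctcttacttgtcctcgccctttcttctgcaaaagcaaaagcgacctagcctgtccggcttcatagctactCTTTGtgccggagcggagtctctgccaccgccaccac
Fzd7 promoter: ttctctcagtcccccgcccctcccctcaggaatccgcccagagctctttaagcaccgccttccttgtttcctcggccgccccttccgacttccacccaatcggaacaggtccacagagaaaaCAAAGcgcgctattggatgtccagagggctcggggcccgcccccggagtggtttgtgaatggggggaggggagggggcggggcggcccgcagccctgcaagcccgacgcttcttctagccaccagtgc
The Fzd1 window holds the core 2 times, with first bases at -241 and -37, and has 51.2% G and C. The Fzd7 window holds it once, at -128, and has 65.2% G and C, where the median of all windows was 52.0%. Of 27025 promoter windows of the same length, 48.8% hold CTTTG. The longer form CTTTGAT, found in 3.23% of windows and overlapping the core, was in neither. The letters TGANTCA (AP-1, 6.87% of windows), GAGGAAGT (PU.1, 2.44%) and CAGCTG (E-box, 12.8%), searched on both strands, were not in these windows either. A match of letters is a description and no binding site. Windows of 7 of the 10 members were searched. The core was absent from the windows of Fzd5, Ctnnb1 and Axin2, and those of Tcf7l2 and Lef1 held 1 each. Fzd5, without the core, also had its highest mean in XCR1 (15.4 CPM), and its window has 76.4% G and C.

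Of the 8 genes whose levels were most like those of Fzd1 over the 9 libraries, the first was Rab7b, with a Pearson r of log2 CPM of 0.996. Next were Id2, a transcriptional regulator needed for cDC1 (0.994), Ly75, which encodes the uptake receptor DEC-205 (0.994), and Rnf144b (0.992). Mpeg1 (0.991), Irf8, the transcription factor that defines cDC1 (0.99), Zfp189 (0.989) and Rnf145 (0.988) followed. These 9 points fall into 3 populations, so such values mostly reflect the order of the population means and carry no test. All 8 genes kept a higher share of their XCR1 level elsewhere than Fzd1 did, with 11.12% to 54.62% in SIRPa and 4.228% to 43.92% in CD301b. Among the members, Fzd7 and Lrp5 had the highest values (both 0.88) and Lrp6 the lowest (-0.84). Many other genes were closer to Fzd1, as Fzd7 ranked 451 and Lrp5 475 among the genes tested.

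LRP5 and LRP6 are the single-pass co-receptors that pair with Frizzled proteins, and their transcripts differed in opposite directions between CD301b and XCR1. Lrp6 (chr6:134446476-134566965) was at 94.23, 89.88 and 84.78 CPM in XCR1, at 172.4, 157.4 and 140.7 CPM in SIRPa, and at 164.9, 124.0 and 147.1 CPM in CD301b. Every XCR1 library lay below every other library. The log2 fold change over XCR1 was 0.81 ± 0.12 for SIRPa (edgeR adjusted p = 3.95e-05) and 0.70 ± 0.12 for CD301b (adjusted p = 0.000222). SIRPa and CD301b overlapped, with a difference of -0.11 ± 0.12 (CD301b minus SIRPa, edgeR adjusted p = 0.821).

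Lrp5 (chr19:3584828-3686564) had 59.81, 51.12 and 46.92 CPM in XCR1, 47.42, 38.92 and 44.77 CPM in SIRPa, and 36.6, 31.48 and 32.39 CPM in CD301b. The populations stood in the order XCR1, SIRPa, CD301b, but the ends were the only pair that differed by the test: CD301b was lower than XCR1 by -0.65 ± 0.16 (edgeR adjusted p = 0.005). SIRPa against XCR1 gave -0.27 ± 0.16 (edgeR adjusted p = 0.268) and overlapped. CD301b against SIRPa gave -0.38 ± 0.16 (edgeR adjusted p = 0.256), without overlap. Per kb of exon, the ratio of Lrp5 to Lrp6 was 0.822 ± 0.0606 in XCR1, 0.393 ± 0.0501 in SIRPa and 0.326 ± 0.0266 in CD301b. The lowest XCR1 ratio, 0.777, was above the highest ratio elsewhere, 0.447. In each population Lrp6 was thus the more abundant co-receptor transcript per length, by the least in XCR1.

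β-catenin had the highest level per length of the 10 members in each population, at 38.5 ± 3.51 CPM per kb in XCR1, 45.5 ± 2.31 in SIRPa and 44.9 ± 5.58 in CD301b. Ctnnb1 (chr9:120929216-120960507) was at 218.8, 182.5 and 198.3 CPM in XCR1, at 249.8, 227.9 and 230.6 CPM in SIRPa, and at 266.7, 214.4 and 218.9 CPM in CD301b. SIRPa did not overlap XCR1, and CD301b overlapped both. None of the differences passed: SIRPa minus XCR1 was 0.24 ± 0.11 (edgeR adjusted p = 0.133), CD301b minus XCR1 0.22 ± 0.11 (0.172) and CD301b minus SIRPa -0.02 ± 0.11 (0.985). These counts are of transcripts and do not show the amount or the location of the protein, through which the pathway acts.

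Apc, the scaffold of the destruction complex on chromosome 18, had the narrowest range of the members over the 9 libraries. It was at 133.9, 119.2 and 134.6 CPM in XCR1, at 133.2, 144.0 and 131.3 CPM in SIRPa and at 141.8, 138.8 and 144.9 CPM in CD301b. CD301b lay above XCR1 in all libraries, but by 0.13 ± 0.11 on the log2 scale (edgeR adjusted p = 0.438). The other differences were 0.08 ± 0.11 (SIRPa minus XCR1, edgeR adjusted p = 0.702) and 0.06 ± 0.11 (CD301b minus SIRPa, 0.917).

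Axin2, both a scaffold of the same complex and a target that canonical Wnt signalling induces, had the largest fold change of the tested members. It was at 2.395, 0.760 and 4.147 CPM in XCR1, at 19.26, 7.907 and 11.73 CPM in SIRPa and at 6.333, 4.821 and 6.557 CPM in CD301b. The 3 populations did not overlap, with SIRPa highest and XCR1 lowest. SIRPa was higher than XCR1 by 2.41 ± 0.51 on the log2 scale (edgeR adjusted p = 0.00123), and by 3.04 without XCR1 replicate 3. Over all alternatives this difference was 1.98 to 3.04, with an edgeR adjusted p of at most 0.021 when 1 library was left out. CD301b minus XCR1 was 1.28 ± 0.50 (edgeR adjusted p = 0.0735), and 1.90 without XCR1 replicate 3 (adjusted p = 0.0133). Over all alternatives it was 0.85 to 1.90, with an edgeR adjusted p of up to 0.235 when 1 library was left out. CD301b minus SIRPa was -1.13 ± 0.49 (edgeR adjusted p = 0.27). The order of the populations for Axin2 was also that of the macrophage sum given above and of the sum of 14 B cell genes. The B cell sum was 212.7 to 283.6 CPM in SIRPa, 174.4 to 192.6 in CD301b and 96.77 to 151.3 in XCR1. A part of macrophages or B cells in the Axin2 values was not tested. A stretch of 209 exonic bases of Axin2 lies opposite the gene model Gm11670.

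In the wider destruction complex list, 17 of 18 genes were tested. Gsk3b, the kinase that phosphorylates β-catenin, was at 75.8 ± 9.03 CPM in XCR1, 107 ± 14.3 in SIRPa and 110 ± 8.09 in CD301b. Its log2 fold change over XCR1 was 0.50 ± 0.13 in SIRPa (edgeR adjusted p = 0.00789) and 0.53 ± 0.13 in CD301b (0.00507), the former lost without SIRPa replicate 1 (0.0812) or XCR1 replicate 2 (0.0535). Csnk1a1, the casein kinase that primes β-catenin, was higher in XCR1, with a log2 difference of -0.42 ± 0.11 for SIRPa (edgeR adjusted p = 0.00646) and -0.31 ± 0.11 for CD301b (0.0468). The CD301b call of Csnk1a1 was lost when 1 of these was left out: CD301b replicates 3 and 4, XCR1 replicates 1 and 2, and SIRPa replicate 3 (edgeR adjusted p = 0.0516 to 0.218). Axin1, the constitutive Axin, was at 50.8 ± 2.35, 53.9 ± 5.17 and 55.2 ± 7.45 CPM in XCR1, SIRPa and CD301b and passed in none. Against XCR1, 3 of 17 (17.7%) passed in SIRPa and 2 of 17 (11.8%) in CD301b, beside 24.7% and 22.6% of all genes. Gsk3b, Csnk1a1 and Axin1 were chosen for mention after their values were seen.

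Tcf7l2 encodes TCF4, a nuclear partner of β-catenin. It was at 30.13, 33.02 and 27.2 CPM in XCR1, at 42.36, 29.48 and 26.72 CPM in SIRPa and at 13.86, 15.51 and 19.03 CPM in CD301b. All CD301b libraries were below all others, and XCR1 and SIRPa overlapped. CD301b was lower than XCR1 by -0.90 ± 0.22 (edgeR adjusted p = 0.00402) and lower than SIRPa by -1.03 ± 0.22 (0.00697). The latter was the only member called between SIRPa and CD301b and was lost without SIRPa replicate 1, the highest library (-0.81, edgeR adjusted p = 0.0866). SIRPa minus XCR1 was 0.13 ± 0.21 (edgeR adjusted p = 0.763).

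Lef1 and Tcf7 encode the TCF family members of T cells and also stand in the thymocyte marker list. Lef1 was at 28.38, 21.62 and 69.16 CPM in XCR1, at 43.11, 31.45 and 63.95 CPM in SIRPa and at 29.04, 65.57 and 106.0 CPM in CD301b. The populations overlapped widely, and the highest library exceeded the lowest by 3.65 times within CD301b alone. CD301b minus XCR1 was 0.75 ± 0.63 (edgeR adjusted p = 0.504), SIRPa minus XCR1 0.22 ± 0.63 (0.877) and CD301b minus SIRPa 0.53 ± 0.63 (0.849).

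Within each of the 3 populations, the order of the libraries by Lef1 was the same as by the sum of the 23 other thymocyte genes, and so was the order by Tcf7. The match held in 1 of 3 populations for Fzd5, Axin2, Tcf7l2 and Apc and in none for the remaining members. Lef1 amounted to 7.06% to 12.2% of the thymocyte sum over the 9 libraries. XCR1 replicate 3, the highest of its population for Lef1, had a thymocyte sum of 951.9 CPM, against 306.9 and 233.7 CPM in replicates 1 and 2. In that library the recombinase gene Rag1, which developing lymphocytes express, was at 114.6 CPM, against 8.18 and 4.99 CPM in the other XCR1 libraries. The part of thymocyte RNA in the Lef1 and Tcf7 values was not tested beyond these levels.

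Tcf7 was at 112.3, 92.78 and 245.0 CPM in XCR1, at 252.7, 205.8 and 292.0 CPM in SIRPa and at 99.29, 155.9 and 194.7 CPM in CD301b. All SIRPa libraries were above all CD301b libraries, and as a share of the thymocyte sum Tcf7 was 37.9% to 53.8% in SIRPa and 22.4% to 24.1% in CD301b. The difference from CD301b to SIRPa, -0.74 ± 0.43, did not pass (edgeR adjusted p = 0.562), nor did SIRPa minus XCR1, 0.74 ± 0.43 (0.307), which became 1.29 without XCR1 replicate 3 (edgeR adjusted p = 0.00374). With limma-voom both passed (adjusted p = 0.0309 and 0.00614). Tcf7l1, which encodes the mostly repressive TCF3, averaged 3.40 ± 0.933 CPM in XCR1, 11.8 ± 2.83 in SIRPa and 4.45 ± 2.81 in CD301b. SIRPa was higher than XCR1 by 1.79 ± 0.49 (edgeR adjusted p = 0.00944), and by 1.63 without SIRPa replicate 2 (adjusted p = 0.055).

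**Figure D3:**
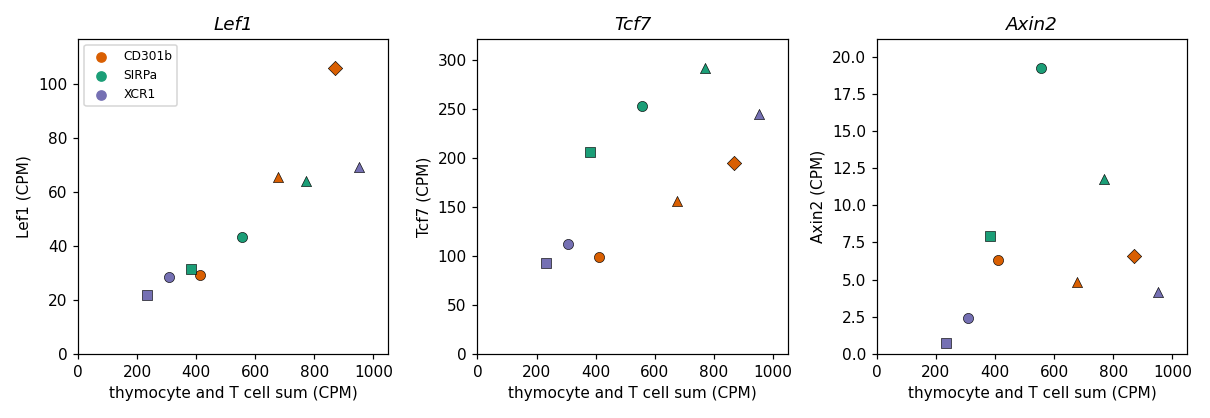
CPM of Lef1, Tcf7 and Axin2 (vertical axes) against the summed CPM of 23 thymocyte and T cell genes other than Tcf7 and Lef1 (horizontal axis); 1 point per library, colour for the population and symbol for the replicate number as in the plot of the members. Lef1 and Tcf7 follow the thymocyte sum in each population, while Axin2 is highest in SIRPa replicate 1, whose sum of 556.5 CPM lies mid-range.

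The remaining pathway genes were taken from 11 lists by role, with 140 genes. Of these, 138 were in the table, 25 without a read in any library, and 83 other than Fzd1 were tested. CD301b against XCR1 gave 23 called genes (13 higher in CD301b and 10 in XCR1), or 27.7% of those tested, beside the 22.6% of all genes. SIRPa against XCR1 gave 25 (17 higher in SIRPa and 8 in XCR1), or 30.1%, beside 24.7%. CD301b against SIRPa gave 6, with 3 in each direction, or 7.23%, beside 4.28%. The median log2 fold changes were 0.13, 0.22 and -0.04, where those of all genes were 0.049, 0.058 and 0.007. By direction, 13.5% of all genes were called higher in CD301b and 9.12% in XCR1, and 13.9% higher in SIRPa and 10.7% in XCR1. Between CD301b and SIRPa, 2.2% were higher in CD301b and 2.08% in SIRPa. The shares of the pathway genes were not tested against those of all genes.

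Transcripts of the Wnt ligands were low. Of 19 ligand genes, 7 had no read in any library and 15 stayed below 1 CPM in each. Wnt11 and Wnt8b passed the filter on low counts. Wnt11 averaged 2.11 ± 0.294 CPM in XCR1, 5.78 ± 0.981 in SIRPa and 3.39 ± 1.14 in CD301b. Neither gene passed edgeR's test in any comparison of the fit over 9 libraries. Wnt11 was higher in SIRPa than in XCR1 with DESeq2 (1.46, adjusted p = 0.022). It also passed with edgeR on only the 6 libraries compared (1.46, adjusted p = 0.0457). Wls, by contrast, which carries Wnt proteins to the cell surface for release, was at 33.6, 39.62 and 33.74 CPM in SIRPa and at 31.74, 27.46 and 30.73 CPM in CD301b. In XCR1 it was at 1.896, 0.333 and 5.691 CPM, below every other library. Its log2 fold change over XCR1 was 3.75 ± 0.74 in SIRPa (edgeR adjusted p = 0.0085) and 3.50 ± 0.73 in CD301b (0.0124), the latter 3.32 without XCR1 replicate 1 (adjusted p = 0.0613). Without XCR1 replicate 3, its highest XCR1 library, the values for Wls were 5.01 and 4.76.

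Among secreted antagonists, Dkk2, which binds LRP5 and LRP6, had 4 reads in XCR1 replicate 2 and none in the other XCR1 libraries. It averaged 5.74 ± 1.83 CPM in SIRPa and 3.24 ± 1.44 in CD301b, and both differed from XCR1 (edgeR adjusted p = 7.4e-05 and 0.000297). Dkk2 passed the filter on low counts through SIRPa and CD301b libraries alone, so these tests are not free of that selection. Rnf43, a ubiquitin ligase that removes Frizzled proteins from the cell surface and is itself a Wnt target, was at 5.338, 3.563 and 6.896 CPM in XCR1. It was at 20.4, 15.07 and 19.18 CPM in SIRPa and at 16.01, 15.13 and 13.65 CPM in CD301b, above XCR1 in each library. The log2 fold change over XCR1 was 1.79 ± 0.30 in SIRPa (edgeR adjusted p = 0.000109) and 1.50 ± 0.30 in CD301b (0.000686). Rnf43 is named outside the rule, after its values were seen. Dkk3, also named outside the rule, was at 10.78, 21.95 and 11.19 CPM in XCR1 and at most 3.514 CPM in any other library, but passed in neither comparison with XCR1 (edgeR adjusted p = 0.0845 for SIRPa and 0.0816 for CD301b). Both passed with limma-voom (adjusted p = 0.00336 and 0.00247), without SIRPa replicate 2 (0.0133 and 0.0225) and without SIRPa replicate 3 (0.0112 and 0.000638). The Rnf43 partner Znrf3 did not pass, at 3.47 ± 3.73 CPM in XCR1, 9.84 ± 3.18 in SIRPa and 8.53 ± 3.25 in CD301b. Without XCR1 replicate 3, Znrf3 was higher than XCR1 in both (edgeR adjusted p = 0.000509 and 0.00107).

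Adgra2, or GPR124, a cofactor for WNT7 signalling, was higher in XCR1, at 47.4 ± 10.2 CPM, than in the SIRPa (10.4 ± 3.11 CPM) and CD301b (15.4 ± 4.77 CPM) libraries. The log2 differences from XCR1 were -2.19 ± 0.27 (edgeR adjusted p = 3.03e-06) and -1.62 ± 0.27 (1e-04). The Dishevelled regulator Ccdc88c went the other way, with 15.8 ± 6.80 CPM in XCR1, 44.6 ± 7.71 in SIRPa and 48.6 ± 14.9 in CD301b, and 1.62 ± 0.31 for CD301b minus XCR1 (edgeR adjusted p = 0.00142). Daam1, a formin that binds Dishevelled, was higher in SIRPa than in either other population, at 116.4, 115.5 and 117.2 CPM. It was at 67.89, 68.84 and 72.87 CPM in XCR1 and at 68.27, 52.44 and 62.0 CPM in CD301b. SIRPa minus XCR1 was 0.74 (edgeR adjusted p = 0.000159) and CD301b minus SIRPa -0.93 ± 0.13 (0.00011).

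BCL9 and BCL9L are adaptors that bridge β-catenin to the Pygopus proteins, and the transcripts of this pair differed from XCR1 in opposite directions. Bcl9 was at 100.1, 82.71 and 66.12 CPM in XCR1, at 41.46, 48.67 and 42.56 CPM in SIRPa and at 23.46, 37.73 and 28.82 CPM in CD301b. Bcl9l was at 10.92, 8.456 and 11.04 CPM in XCR1, at 30.53, 30.57 and 29.78 CPM in SIRPa and at 29.55, 35.05 and 37.63 CPM in CD301b. XCR1 overlapped neither other population in either gene.

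Against XCR1, Bcl9 was lower in CD301b by -1.47 ± 0.19 (edgeR adjusted p = 3.72e-06) and in SIRPa by -0.91 (0.000771). Bcl9l was higher by 1.75 ± 0.21 (edgeR adjusted p = 1.42e-06) and 1.58 (5.11e-06) in the same order. Per kb of exon, the ratio of Bcl9 to Bcl9l was 7.87 ± 1.93 in XCR1, 1.38 ± 0.114 in SIRPa and 0.832 ± 0.163 in CD301b. Of the Bcl9l exonic bases, 772 lie opposite Cxcr5 and Gm47205.

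Pygo2, the Pygopus protein that binds these adaptors, was highest in XCR1 at 69.6 ± 12.6 CPM, with 49.9 ± 4.41 in CD301b and 31.1 ± 3.43 in SIRPa. SIRPa was lower than XCR1 by -1.16 ± 0.17 (edgeR adjusted p = 1.66e-05). CD301b was lower than XCR1 by -0.48 ± 0.16 (edgeR adjusted p = 0.0391), a call of Pygo2 lost when 1 of the 3 CD301b libraries or XCR1 replicates 1 and 2 was left out (0.0527 to 0.189). CD301b was higher than SIRPa by 0.68 ± 0.16 (edgeR adjusted p = 0.0187), a call lost without any 1 of CD301b replicate 1 (0.074), CD301b replicate 3 (0.0691), SIRPa replicate 1 (0.0743) and SIRPa replicate 3 (0.116). Ctnnbip1, or ICAT, which blocks β-catenin from TCF, was also highest in XCR1, at 32.6 ± 5.45 CPM against 12.8 ± 2.76 in SIRPa and 15.2 ± 5.23 in CD301b. The log2 differences were -1.35 ± 0.27 (edgeR adjusted p = 0.000774) and -1.11 ± 0.27 (0.0044). Jup, plakoglobin and a relative of β-catenin, was highest in CD301b at 65.2 ± 1.98 CPM, with 43.8 ± 3.66 in SIRPa and 38.6 ± 6.87 in XCR1. Its difference between CD301b and SIRPa, 0.57 ± 0.16 (edgeR adjusted p = 0.043), was lost without any 1 of the 6 libraries compared, at up to 0.213, and with RLE size factors (0.0537). CD301b minus XCR1 was 0.76 ± 0.16 for Jup (edgeR adjusted p = 0.00122), without overlap, and kept its call in every alternative.

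The list of genes known as Wnt targets in other tissues had calls in both directions. Of 12 tested, SIRPa against XCR1 gave 3 higher in SIRPa (Axin2, Rnf43 and Cd44) and 2 higher in XCR1 (Fzd7 and Cldn1), where 13.9% and 10.7% of all genes were called in these directions. CD301b against XCR1 gave 3 higher in CD301b (Rnf43, Ccnd1 and Cd44) and 3 higher in XCR1 (Fzd7, Cldn1 and Mmp7), beside 13.5% and 9.12% of all genes. The call of Ccnd1, an edgeR adjusted p of 0.0434, was lost without any 1 library other than CD301b replicate 4 and XCR1 replicate 1 (0.0656 to 0.222), and with RLE size factors (0.0529). Cldn1, a tight junction protein, was at 406.3, 465.0 and 346.6 CPM in XCR1, at 87.51, 78.19 and 105.1 CPM in SIRPa and at 289.0, 245.5 and 294.1 CPM in CD301b. The 3 populations did not overlap.

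SIRPa was lower in Cldn1 than XCR1 by -2.17 ± 0.13 (edgeR adjusted p = 6.02e-11), and CD301b was higher than SIRPa by 1.61 ± 0.13 (2.22e-07). Cldn1 and Axin2 thus had opposite orders over the populations. Mmp7, a metalloproteinase named outside the rule, had no read in CD301b. Its SIRPa mean of 1.28 ± 0.835 CPM was at least 29.7-fold above the floor (edgeR adjusted p = 0.0492) and its XCR1 mean of 1.14 ± 1.60 CPM at least 26.4-fold (0.0147). The SIRPa call of Mmp7 was lost without any 1 of the 6 libraries compared or XCR1 replicate 1 (edgeR adjusted p = 0.0784 to 0.173), and the XCR1 call without XCR1 replicate 1 (0.128). That library held 60 of the 69 Mmp7 reads of XCR1, and without it the bound fell to at least 4.98-fold. Without SIRPa replicate 2 the SIRPa bound was at least 18.6-fold. Mmp7 passed the filter on low counts through SIRPa and XCR1 libraries alone, so its tests are not free of that selection.

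Planar cell polarity genes, which act in a Wnt branch without β-catenin, gave 2 of 9 called against XCR1 in each other population, all lower in XCR1. That share, 22.2%, is near the 24.7% (SIRPa) and 22.6% (CD301b) of all genes. Celsr1, a cadherin receptor of this branch, was at 21.2 ± 5.31 CPM in XCR1, 32.1 ± 3.97 in SIRPa and 35.3 ± 5.80 in CD301b (edgeR adjusted p = 0.0437 and 0.0146 against XCR1). Its SIRPa call was lost without any 1 library other than CD301b replicate 3 and XCR1 replicate 3 (0.0507 to 0.208), and its CD301b call without CD301b replicate 1 (0.0808) or XCR1 replicate 1 (0.0889). Vangl1, a membrane protein of the same branch, had 155 reads in SIRPa and 1 in XCR1 (replicate 2), a ratio of 147 (exact 95% counting interval 26.0 to 5851, edgeR adjusted p = 0.0129). The call was lost without SIRPa replicate 1 (0.0706), SIRPa replicate 3 (0.0542) or XCR1 replicate 1 (0.0508). Vangl1 passed the filter on low counts through the SIRPa libraries, where it was high, so its test is not free of that selection. Vangl2 was called between CD301b and XCR1 alone, at 22.5 ± 5.17 against 11.5 ± 1.98 CPM (edgeR adjusted p = 0.00987, and 0.0645 without CD301b replicate 3).

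**Figure D4:**
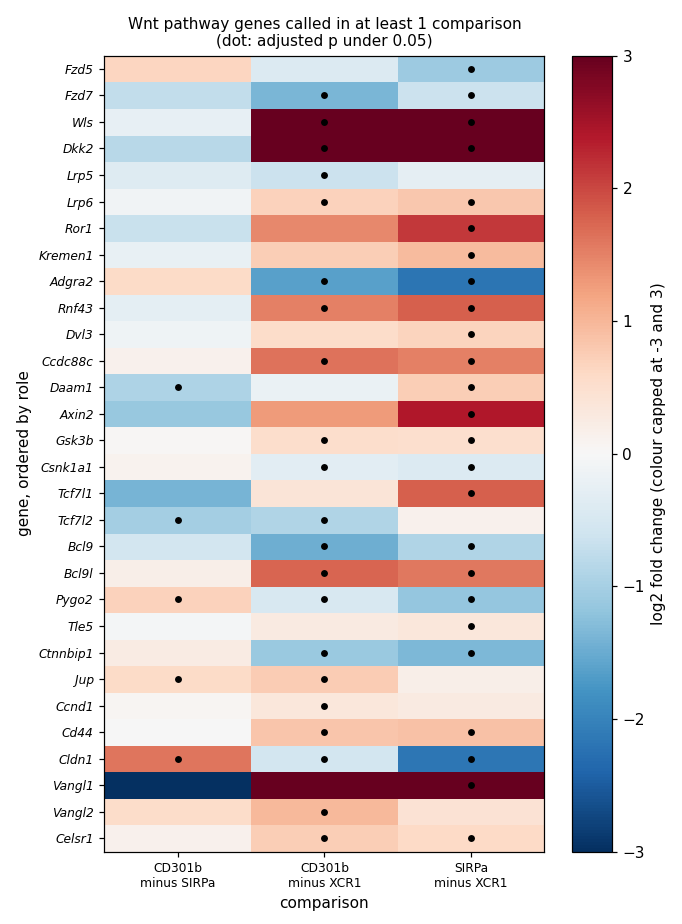
Log2 fold changes (colour, capped at -3 and 3) of the 30 Wnt pathway genes with an adjusted p under 0.05 in at least 1 comparison and a mean of at least 1 CPM in it, ordered by role; dots mark calls. Wls and Dkk2 are dark red in both comparisons with XCR1, Adgra2, Bcl9 and Ctnnbip1 are blue there, and the CD301b minus SIRPa column has 5 dots. Vangl1 is at the colour limit with few reads, and its CD301b minus SIRPa value did not pass the test.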

How the data were processed

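Per the submitters' processing notes, the tools of the authors were HISAT2 and featureCounts (Subread), with FastQC, Trimmomatic, SAMtools and edgeR, on the build mm10; no version, annotation or strand setting is named there. Per the labels' protocols, the library kit was a stranded total RNA kit by Clontech. The deposited table holds raw read counts per gene. The authors' second table holds log2 CPM; its 81 member values with at least 100 counts differed from recomputed ones by 0.114 to 0.132, and it was not tested. In the count table, 24 symbols had become dates (0.125 to 0.187% of counts) and were left out.

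The counts were filtered with edgeR 4.0.16's filterByExpr (minimum count 10), which kept 15417 genes and all 10 members, scaled by TMM and tested with the quasi-likelihood test (robust, two-sided) in 1 fit over 9 libraries with R 4.3.3, at an adjusted p threshold of 0.05. SE is the log2 fold change over the root of F. Alternatives used DESeq2 1.42.0, limma-voom (limma 3.58.1), RLE factors, no filter, 6 libraries, a replicate block and leaving out each library. Positions and exonic lengths are from GENCODE M21, promoters from RefSeq.

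The members and lists were chosen with earlier results of these data known. Beside the members, the rule named the other Frizzled genes, Tcf7, Tcf7l1 and, per comparison and direction, up to 4 called list genes with the largest log2 fold change, a mean of at least 1 CPM and no overlap; genes most like Fzd1 were the 8 with the highest r of log2 CPM (prior count 2).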

Additional observations from a re-analysis of the deposited data

How the results depend on the processing

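The 111 log2 fold changes of members and named pathway genes gave 1662 values under their alternatives. Of these, 1547 kept their side of the threshold, 80 lost the call and 35 gained it. The 1547 include results uncalled in the main fit that stayed so, and thus do not give the stability of the calls alone. No result with a call in either fit reversed direction. Where neither fit gave a call, direction was not compared. Some such values changed sign, as for Lef1 in CD301b against SIRPa (0.53 in the main fit, -0.33 at the lowest). Members called between CD301b and SIRPa were 2 with no filter and 2 with DESeq2, where Fzd7 joined Tcf7l2, against 1. With 1 library left out, members called ranged from 0 to 2 (CD301b against SIRPa), 4 to 5 (CD301b against XCR1) and 2 to 4 (SIRPa against XCR1), and pathway genes from 2 to 7, 17 to 24 and 17 to 29. The Fzd1 level outside XCR1 ranged from 0.21% to 0.527%.

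Deviations from the population mean correlated weakly between same-numbered libraries of different populations, at 0.003 to 0.041 over 7 pairs. The 20 other pairs were at -0.067 to 0.048. Of 8 libraries, 4 correlated best with their own number. These values do not settle whether the numbers mark pairs, and the main fit did not use them as such. With the replicate block, members called were 1, 4 and 4 and pathway genes 5, 21 and 29, in the same order of comparisons. No other population has a replicate 4, so in this fit CD301b replicate 4 does not inform the differences. Those of CD301b then rest on its replicates 1 and 3, and calls can change for that reason too. Among genes named, the replicate block brought Tcf7 past the threshold (adjusted p = 0.00615 for CD301b against SIRPa, 0.00294 for SIRPa against XCR1) and took out Wls (0.116 for CD301b and 0.0629 for SIRPa, against XCR1). It also took out Jup (0.0592) and Mmp7 (0.152) for CD301b against SIRPa, and Pygo2 (0.278), Csnk1a1 (0.388), Mmp7 (0.0913) and Fzd9 (0.112) for CD301b against XCR1, and brought in Znrf3 (0.0228) and Ccnd1 (0.0477) for SIRPa against XCR1. The 5 Frizzled genes removed by the filter were not tested. The bounds of Fzd1 and Mmp7 with 1 library left out were computed after seeing the data.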
